A study of Mus musculus with 24 samples.

Results

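The MxCre set titled A1b holds 6 of the 24 RNA-seq libraries of the series: 3 control libraries (controls 1 to 3) and 3 floxed libraries (floxed 1 to 3), chosen by their titles. All 6 were made from mouse bone marrow leukaemia cells that carried the MLL-AF9 fusion oncogene and the MxCre transgene, and were taken from moribund secondary recipients. The 3 control libraries are labelled +/+ and the 3 floxed libraries fl/fl. The title names Arid1b in short form (A1b), whereas the cell type field of the same 6 samples names Arid2, so the set is called here by its title and the deleted gene was not settled. Per the labels' protocols, recipients of MxCre+ cells were given the double-stranded RNA analogue pIpC in 3 injections of 12.5 µg per g spread over a week, from day 21 after transplantation. The control leukaemias therefore share MxCre, MLL-AF9 and the pIpC injections with the floxed ones. MxCre is driven by an interferon-responsive promoter and is not restricted to leukaemia cells. The labels do not say how many donors, primary leukaemias or clones stand behind the 6 recipients, nor give their age or strain. The p-values therefore measure only the spread between libraries within groups, pooled over all 24 libraries of the series.

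SWI/SNF complexes use ATP to move nucleosomes, and ARID1B and ARID2 are DNA-binding subunits of different forms of them. ARID1B, like its paralogue ARID1A, defines the canonical BAF complex, and ARID2 defines the PBAF complex together with PBRM1 and BRD7. MLL-AF9 joins the N-terminal part of the histone methyltransferase MLL to AF9, recruits the transcription elongation machinery to genes such as the Hoxa cluster and Meis1, and transforms myeloid progenitors into an acute myeloid leukaemia that can be passed from mouse to mouse.

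Library totals in the set ran from 12069153 to 17231014 counts, and those of the other 18 libraries from 16361323 to 38315410, so that only control 2 reached the range of the others. Between 15480 and 16229 genes had a read, and the 10 most abundant genes took 3.03% to 4.77% of counts. Myeloid identity was plain in every library: Mpo (myeloperoxidase) ranged from 260 to 5776 CPM (normalised counts, adjusted to equal library sizes) and Elane (neutrophil elastase) from 1180 to 3673 CPM, while Cd3e (T cells) did not exceed 2.40 CPM. Controls 1 and 3 had high levels of the Y-linked genes, control 2, floxed 2 and floxed 3 had none, and floxed 1 had part of them, so sex was not balanced between the groups.

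The libraries did not sort by group. Across the 14099 genes tested, log2 levels of controls 1 and 3 correlated at r = 0.986, and no other pair of the set passed 0.943, the value for control 2 and floxed 1. Floxed 2 and floxed 3 came next with r = 0.941. Controls 1 and 3 still differed by more than sampling noise, with a chi-square of 15.5 per degree of freedom against at least 72.3 for every other pair, and were kept as separate samples. The first principal component held 37.3% of the variance and placed control 2 (-78.3) and floxed 1 (-66.0) at one end, floxed 2 (68.1) and floxed 3 (57.4) at the other, and controls 1 (5.69) and 3 (13.2) between them. The second component held 29.0% and set controls 1 (69.1) and 3 (68.3) apart from the other 4 libraries, with control 2 at -26.2 next to the floxed libraries at -29.0, -50.3 and -32.0.

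**Figure D1:**
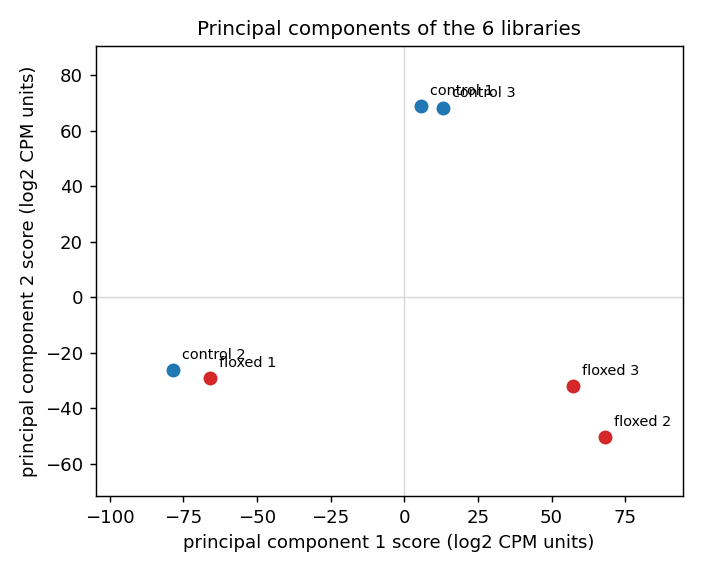
Scores of the 6 libraries on the first (x axis) and second (y axis) principal component of their log2 CPM values, with controls in blue and floxed libraries in red. Control 2 lies beside floxed 1, with first-component scores of -78.3 and -66.0, and controls 1 and 3 lie together at the top.

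The first comparison asked whether the floxed alleles changed the level of either named gene. Arid1b stood at 155, 193 and 175 CPM in controls 1 to 3 and at 262, 55.7 and 253 CPM in floxed 1 to 3. The floxed libraries lay on both sides of the controls, and the log2 fold change was 0.13 ± 0.447 (SE; 95% interval -0.82 to 1.08; edgeR quasi-likelihood test, adjusted p = 0.906). Arid2 stood at 202, 287 and 198 CPM in the controls and at 404, 121 and 402 CPM in the floxed libraries. Its log2 fold change was 0.43 ± 0.408 (edgeR adjusted p = 0.611). Both genes were lowest in floxed 2 and higher than in every control in floxed 1 and floxed 3. Floxed 2 was also the library in which long transcripts were low (Spearman's rho = -0.39 between exon length and deviation from the controls). Counts are summed over the whole gene, so loss of the exons between loxP sites need not lower them, and neither gene's level settles which of the labels names the deleted gene.

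The floxed and control leukaemias were then compared over all genes. Of 14099 genes tested, 1 passed an adjusted p of 0.05 (0.00709% of genes), and it was higher in the floxed libraries. At an adjusted p under 0.1 there were 72 genes (0.511%), 32 higher (0.227%) and 40 lower (0.284%). At an unadjusted p under 0.05 there were 2450 (17.4%), and in 1987 (14.1%) the 3 floxed libraries all lay on 1 side of the 3 controls. The count of called genes rested on single libraries: leaving out floxed 1 gave 1535 called genes (10.7% of 14369 tested; 788 higher, 5.48%, and 747 lower, 5.2%), and leaving out control 2 and floxed 1 together gave 947 (6.6% of 14355; 491 higher, 3.42%, and 456 lower, 3.18%). The joint omission was chosen after these libraries were seen to lie together. It leaves only controls with Y-linked genes against floxed libraries without them, so sex and floxed alleles cannot be told apart in it. The same holds wherever that omission is used below. Leaving out control 1, control 3 or floxed 3 gave 0. DESeq2 fitted to the same 24 libraries called 478 genes (3.39%; 261 higher, 1.85%, and 217 lower, 1.54%), and voom with library weights 12 (0.0851%).

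**Figure D2:**
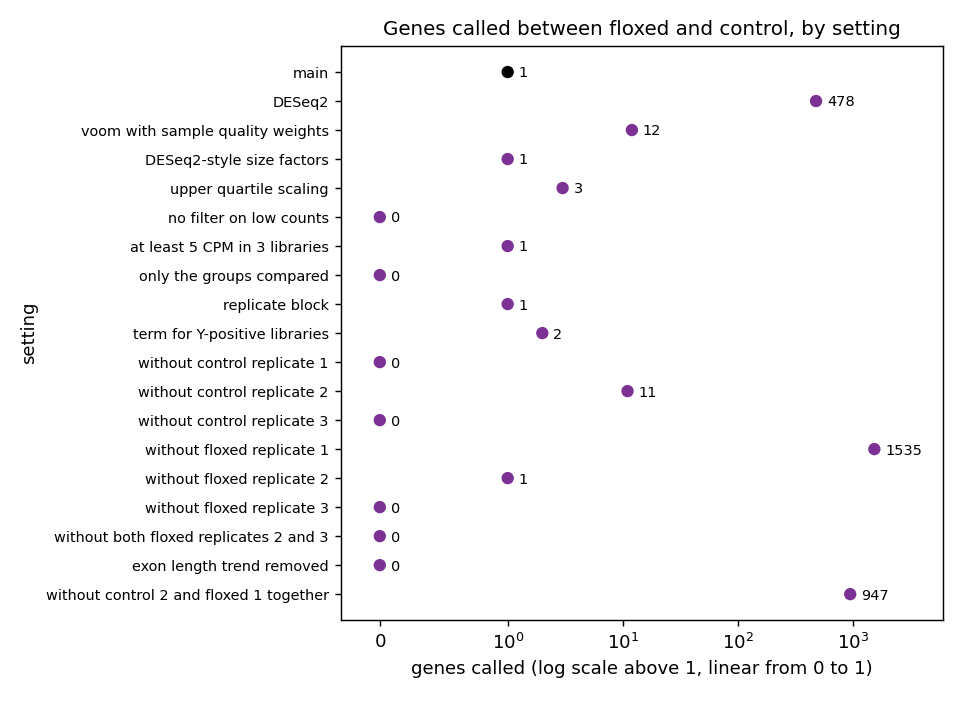
Number of genes with an adjusted p under 0.05 between floxed and control libraries (x axis, logarithmic above 1) under each setting (y axis). The edgeR fit used for the report is the black point at 1, and the count without floxed 1 reaches 1535.

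The called gene was Gla, which encodes alpha-galactosidase A, the lysosomal enzyme that removes terminal galactose from globotriaosylceramide. Gla was at 22.0, 19.4 and 23.9 CPM in controls 1 to 3 and at 40.2, 40.8 and 51.6 CPM in floxed 1 to 3. Every floxed library was above every control, and means were 21.8 ± 2.26 CPM and 44.2 ± 6.43 CPM (SD, n = 3 each). The log2 fold change was 1.02 ± 0.152 (edgeR adjusted p = 0.0312). Its size stayed between 0.89 and 1.10 over 18 alternative settings, but it passed the threshold in 10 of them, with adjusted p from 2.84e-07 (DESeq2) to 0.392 (a fit on the 6 libraries alone). Without control 1, control 3 or floxed 3 the edgeR adjusted p was 0.191, 0.109 and 0.0565.

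Gla lies on the minus strand of chromosome X at 134588149 to 134601125 (GRCm38, GENCODE M21). RefSeq's upstream sequence of Gla holds 2 copies of CACGTG, the E-box bound by MITF/TFE and MYC/MAX factors among others, and both stand in TCACGTGA, the core of the motif of lysosomal gene promoters. They are shown because Gla is the single called gene. Each line gives 30 bases on the Gla strand with CACGTG in capitals, from the RefSeq promoter table of GRCm38.p6.
Gla, chrX:134601215-134601244: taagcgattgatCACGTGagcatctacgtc
Gla, chrX:134601182-134601211: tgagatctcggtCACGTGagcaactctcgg
Of 32851 promoters in the table, 6.02% hold CACGTG and 0.785% hold TCACGTGA in the 250 bases before the start; both motifs read the same on either strand, and each TCACGTGA contains a CACGTG. Both windows also lie within annotated 5′ exons of Hnrnph2, the neighbouring gene on the opposite strand, which encodes an RNA-binding protein. Hnrnph2, looked up for its position, was at 97.7, 113 and 86.6 CPM in the controls and 95.1, 83.3 and 89.6 CPM in the floxed libraries, which overlapped (log2 fold change -0.15 ± 0.120, edgeR adjusted p = 0.53).

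The 20 separated genes with the smallest p below Gla, 10 in each direction, did not pass: their edgeR adjusted p ran from 0.0591 to 0.0667. All 20 passed without floxed 1 (10.7% of all genes), without control 2 and floxed 1 together (6.6%) and by DESeq2 (3.39%). With voom library weights 2 passed (0.0851% of all genes), and without control 2 also 2 (0.0766%). None of them passed without floxed 2 (0.00697% of all genes), without floxed 3 (0%) or with the exon length trend removed (0%). Their separation between groups and their small p were part of the rule that named them. Both, and the counts passing in other fits to the same libraries, are a description.

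Among the 10 with higher values in the floxed libraries, Pak1, a kinase activated by the small GTPases RAC1 and CDC42, was at 85.6, 95.6 and 88.2 CPM in the controls and 175, 164 and 170 CPM in the floxed libraries (log2 fold change 0.92 ± 0.151, edgeR adjusted p = 0.0591). The 3 floxed values of Pak1 lay close together and well above all controls. Bhlhe40, a transcriptional repressor of the circadian and hypoxia responses, was at 7.83, 11.8 and 13.9 CPM in the controls and 40.3, 24.6 and 40.9 CPM in the floxed libraries (log2 fold change 1.66 ± 0.331). Spp1, the secreted matrix protein osteopontin, was at 3.80, 7.02 and 7.27 CPM in the controls and 27.9, 81.4 and 133 CPM in the floxed libraries (log2 fold change 3.74 ± 0.731). Its floxed values differed from each other by more than those of Pak1 did. Ier3, an early-response regulator of survival, was highest in floxed 3 at 30.3 CPM, with 6.16 and 9.55 CPM in floxed 1 and 2 and 2.87 to 3.01 CPM in the controls. The others were Dok1 (an adaptor that restrains tyrosine kinase signalling), Rnf7 (a RING subunit of cullin ubiquitin ligases), Gpsm2 (a spindle orientation protein), Prdx6 (a peroxiredoxin), Tmem147 and H2-Q10, with log2 fold changes from 0.87 (Dok1) to 3.25 (H2-Q10). H2-Q10 belongs to a family of near-identical class I genes, so its counts are uncertain.

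Among the 10 with lower values, Pbx3, the TALE homeodomain partner of HOXA9 and MEIS1, was at 128, 110 and 160 CPM in controls 1 to 3 and at 14.3, 8.60 and 10.2 CPM in floxed 1 to 3. The groups lay far apart, with a log2 fold change of -3.59 ± 0.732 (edgeR adjusted p = 0.0667). Col6a3, a chain of collagen VI, was at 59.0, 75.1 and 49.0 CPM in the controls and at 1.88, 0.174 and 1.03 CPM in the floxed libraries (log2 fold change -5.84 ± 1.15, edgeR adjusted p = 0.0664). Lrba, a vesicle trafficking protein of the BEACH family, was at 59.8, 78.3 and 63.7 CPM against 20.5, 14.4 and 23.4 CPM (log2 fold change -1.79 ± 0.325). For all 3 genes the floxed values lay under every control, as the rule required. Jup (plakoglobin, a catenin of cell junctions), Gba2 (the non-lysosomal glucosylceramidase), Slc38a1 (an amino acid transporter), Wdr47, Dnajc18, Sparc (a secreted matrix protein) and Igfbp5 (an IGF-binding protein) had log2 fold changes from -0.84 (Slc38a1) to -2.30 (Igfbp5).

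**Figure D3:**
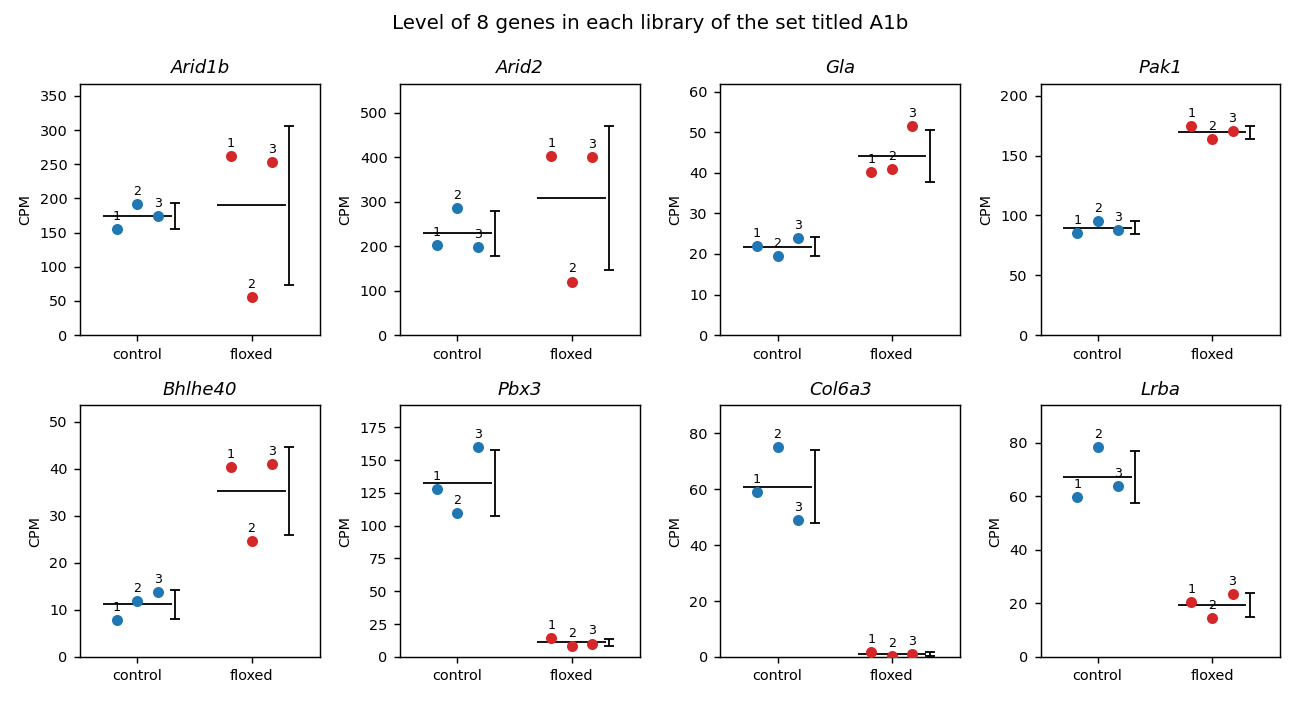
Level of 8 genes in CPM (y axis, from 0) in control (blue) and floxed (red) libraries, numbered by replicate; lines are means and bars are SD (n = 3). Gla is the called gene, Arid1b and Arid2 overlap between groups, and Pbx3 in the floxed libraries lies at 8.60 to 14.3 CPM.

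The SWI/SNF genes themselves showed no called change. Of 16 tested core and ATPase subunits, 1 was higher and 2 were lower at an unadjusted p under 0.05 (9.59% and 7.79% of all genes), with a median log2 fold change of 0.04 beside 0.01 over all genes. Smarcc2, a core scaffold subunit, was at 264, 256 and 283 CPM in the controls and 235, 130 and 200 CPM in the floxed libraries (log2 fold change -0.51 ± 0.167, edgeR adjusted p = 0.151). Of 11 accessory subunits of BAF, PBAF and ncBAF, 0 reached an unadjusted p of 0.05 in either direction. Their median was -0.11, or 0.0093 with the exon length trend removed. Arid1a, the paralogue of Arid1b, was at 571, 566 and 586 CPM in the controls and 513, 237 and 531 CPM in the floxed libraries (log2 fold change -0.43 ± 0.214, edgeR adjusted p = 0.308). The groups did not overlap, and the lowest value was again that of floxed 2, without which the log2 fold changes were -0.14 for Arid1a and -0.30 for Smarcc2. Without floxed 1, Smarcc2 was at -0.70 (edgeR adjusted p = 0.0166). In that fit 1 of the 16 core and ATPase subunits was called higher and 1 lower (5.48% and 5.2% of all genes). The median of the list there was -0.0045.

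Of 19 tested MLL-fusion targets and self-renewal genes, 1 was higher and 1 lower at an unadjusted p under 0.05 (9.59% and 7.79% of all genes). The median log2 fold change was -0.22. Prdm16, a zinc finger regulator of stem cells, read 15.3 CPM in floxed 2, 15.2 CPM in floxed 3 and 0 in floxed 1. For Prdm16 the controls held 1 count in all against 354 in the floxed libraries, a ratio of 424 with a counting interval of 75.6 to 16787 that covers counting error only. Meis1 and Hoxa9, chosen after their values were seen, show how the libraries crossed the groups. Meis1 was at 85.7, 91.4 and 104 CPM in the controls and 131, 35.9 and 108 CPM in the floxed libraries. Hoxa9 was at 186, 284 and 180 CPM against 335, 166 and 78.4 CPM.

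Several progenitor genes divided the libraries across the groups, with control 2 beside floxed 1; Tcf4, Cd34, Gata2, Mef2c and Cpa3 were picked after their values were seen, and their groups overlapped. Tcf4, an E-protein of dendritic and progenitor cells, was at 439, 8.47 and 451 CPM in the controls and 7.13, 321 and 599 CPM in the floxed libraries. Cd34, a progenitor surface sialomucin, was at 362, 9.81 and 371 CPM against 12.6, 156 and 105 CPM. Gata2, a stem cell transcription factor, was at 86.7, 1.06 and 91.8 CPM against 5.58, 37.4 and 70.7 CPM. In each of these genes control 2 and floxed 1 were the lowest libraries. Mef2c, an MLL-fusion target, was at 204, 22.8 and 212 CPM against 5.12, 311 and 580 CPM, and Cpa3, a mast cell protease, was at 159, 0.111 and 132 CPM against 0.0649, 12.3 and 8.29 CPM. Of 18 tested stem and progenitor genes, 0 were called. At an unadjusted p under 0.05, 2 were lower and 0 higher (7.79% and 9.59% of all genes), and 4 were lower without overlap (7.55% of all genes). Kit, the stem cell factor receptor, was at 158, 101 and 153 CPM in the controls and 67.8, 32.5 and 18.4 CPM in the floxed libraries (log2 fold change -1.79 ± 0.488, edgeR adjusted p = 0.118). Sox4, a transcription factor of progenitors, was at 52.9, 26.2 and 70.5 CPM against 10.8, 20.4 and 9.57 CPM (log2 fold change -1.88 ± 0.761, edgeR adjusted p = 0.214). For Kit and Sox4 the groups did not overlap.

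Each of the less alike libraries also had genes of its own. In control 2, 42 genes were over 4-fold above the highest of the other 5 libraries (with 1 CPM added), against 0 in controls 1 and 3, 5 in floxed 1, 17 in floxed 2 and 26 in floxed 3. Tcf24, a bHLH factor, was at 883 CPM in control 2 and at most 10.4 CPM elsewhere, and Pmp22 (a myelin membrane protein) at 138 CPM against at most 1.88 CPM. Ikzf2 (Helios, an Ikaros-family factor) was at 1.11 CPM in control 2 and 103 to 216 CPM in the others. Genes over 4-fold below the lowest of the others numbered 7, 9 and 0 in controls 1 to 3 and 35, 41 and 2 in floxed 1 to 3. Eya1, a transcriptional co-activator and phosphatase, was at 0.13 CPM in floxed 1 and 50.2 to 167 CPM elsewhere, and Flt3, the receptor tyrosine kinase of progenitors, was at 1.43 CPM against 47.2 to 212 CPM. Chromosome 12 stood out in control 2: the median deviation of its 358 genes from each gene's median over the 6 libraries was 0.19 on the log2 scale.

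Immediate-early genes, which are transcribed within minutes of a stimulus without new protein synthesis, had a median log2 fold change of 1.91 over 21 tested genes. At an unadjusted p under 0.05, 17 were higher and 1 lower (9.59% and 7.79% of all genes). Without overlap, 7 were higher and 1 lower (6.55% and 7.55% of all genes). None was called in the fit reported, against 16 without floxed 1 (5.48% of all genes), 9 without control 2 and floxed 1 together (3.42%) and 8 by DESeq2 (1.85%). Fos was at 7.83, 5.79 and 10.4 CPM in the controls and at 12.7, 26.7 and 1584 CPM in floxed 1 to 3 (log2 fold change 6.08 ± 1.41, edgeR adjusted p = 0.0919). Fosb was at 1.86, 0.167 and 3.05 CPM in the controls and 0.259, 0.347 and 845 CPM in the floxed libraries. Dusp1, the phosphatase that switches off MAP kinases, was at 4.81, 4.68 and 10.1 CPM against 2.53, 5.21 and 540 CPM. The high values came from floxed 3 alone, and for Fosb and Dusp1 floxed 1 and 2 lay within or below the range of the controls. Without floxed 3 the median of the list was 0.59. Ier2 and Junb, the members with the smallest p, were higher in floxed 2 as well: Junb was at 45.9, 48.8 and 65.7 CPM in the controls and 75.2, 129 and 463 CPM in the floxed libraries (log2 fold change 2.05 ± 0.454, edgeR adjusted p = 0.08), and Ier2 was at 78.2, 78.3 and 106 CPM against 101, 224 and 434 CPM.

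The upstream sequences of Fos, Fosb and Dusp1 are shown because these genes had the largest excess in floxed 3 among the list's members. Each run is on the gene's strand and comes from the RefSeq promoter table of GRCm38.p6. Those of Fos and Dusp1 end before the first base annotated as exon, and that of Fosb is a window of 30 bases around a site that lies inside the longest annotated RefSeq form of the gene. Capitals mark TGACG, the core of the site of CREB and ATF factors, and in Dusp1 a run of capitals marks the full palindrome TGACGTCA.
Fos, chr12:85473640-85473889, plus strand: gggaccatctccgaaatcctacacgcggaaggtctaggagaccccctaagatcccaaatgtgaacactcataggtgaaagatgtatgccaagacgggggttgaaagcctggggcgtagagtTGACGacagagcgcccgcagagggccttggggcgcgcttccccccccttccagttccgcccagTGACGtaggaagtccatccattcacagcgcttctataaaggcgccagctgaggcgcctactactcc
Fosb, chr7:19310088-19310117, minus strand: tggagttgcgggTGACGcaagcgcgggggc
Dusp1, chr17:26508520-26508722, minus strand: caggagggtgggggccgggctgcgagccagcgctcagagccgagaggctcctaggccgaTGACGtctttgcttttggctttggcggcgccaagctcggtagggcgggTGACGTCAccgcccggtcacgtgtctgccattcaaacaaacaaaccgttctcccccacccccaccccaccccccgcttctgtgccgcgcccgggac
On either strand of the 250 bases before the start, TGACG is held by 17.8% of all 32851 promoters and by 11 of the 18 immediate-early genes with a promoter in the table, and TGACGTCA, which contains TGACG on both strands, by 1.55% and by 2 of the 18. The percentages count promoters, whereas an immediate-early gene was counted if any of its promoters held the motif, so the shares are not of like units. A match of letters is a description and not evidence of binding.

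**Figure D4:**
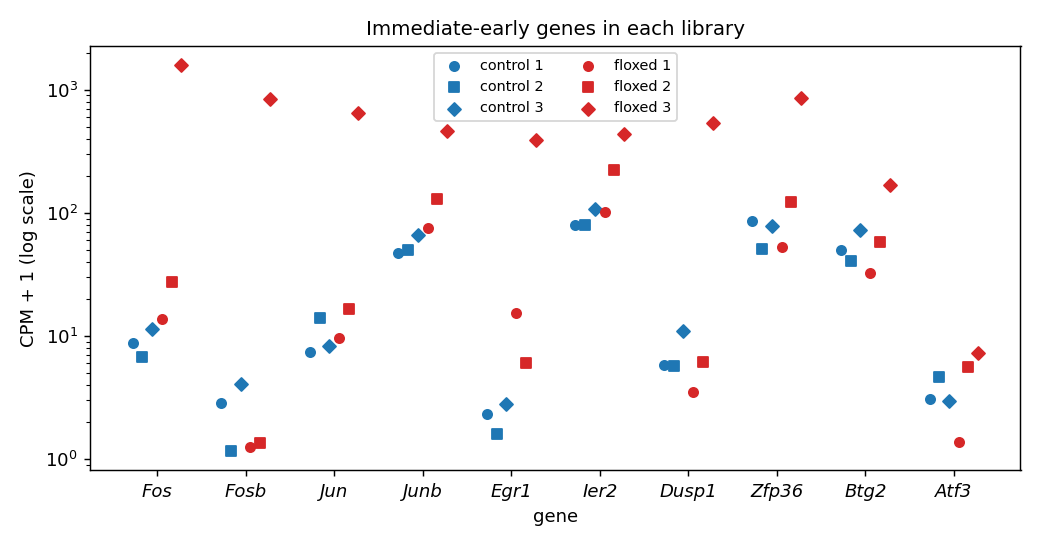
Level of 10 immediate-early genes as CPM plus 1 (y axis, logarithmic) in each library, with controls in blue, floxed libraries in red and the marker shape giving the replicate. Floxed 3 is the highest library for every gene drawn, with Fos at 1584 CPM.

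Neutrophil granule genes varied widely within both groups. The 24 tested secondary and tertiary granule genes, which are switched on as neutrophils mature, summed to 1487, 9113 and 2916 CPM in controls 1 to 3 and 5189, 29131 and 10089 CPM in floxed 1 to 3, so control 2 exceeded floxed 1. The median log2 fold change was 1.39, with 6 higher and 0 lower at an unadjusted p under 0.05 (9.59% and 7.79% of all genes) and 2 higher without overlap (6.55% of all genes). That median was 3.21 without control 2, 0.83 without floxed 2 and 3.27 with voom, and 7 of the genes passed an adjusted p of 0.05 without control 2 and floxed 1 together (3.42% of all genes). Chil3, a chitinase-like protein, was at 57.6, 732 and 188 CPM in the controls and 1288, 3310 and 2273 CPM in the floxed libraries (log2 fold change 2.81 ± 1.11, edgeR adjusted p = 0.204). S100a9, a subunit of calprotectin, was at 43.5, 1115 and 272 CPM against 687, 6145 and 1284 CPM, and its groups overlapped. In bulk RNA a different share of maturing cells and a different amount of RNA per cell cannot be told apart. Of 12 primary granule genes, 1 was higher at an unadjusted p under 0.05 (9.59% of all genes), and the median was 0.51, or 0.19 without floxed 2. The 28 monocyte and macrophage genes were low in floxed 1, with a summed level of 1870 CPM against 5478 to 13437 CPM in the other libraries, and their median log2 fold change was 0.25, or 0.70 without floxed 1 and -0.02 without floxed 2.

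Floxed 2 differed from the others in ways that touched several lists. Its log2 deviations from the mean of the set's controls were related to exon length (Spearman's rho = -0.39 across genes), with long transcripts low, while rho lay between -0.08 and 0.06 in the other 5 (each control set against the other controls). Cbl, a ubiquitin ligase, was at 11.4 CPM in floxed 2 and at 116 to 182 CPM elsewhere. Globin genes were highest in floxed 2 as well. Hba-a1 was at 58.2 CPM in floxed 2, 6.97 CPM in control 2 and at most 0.769 CPM in the others. Hba-a1 and Hba-a2 are near-identical copies with equal counts here. The symbols Hbb-bs and Hbb-b1 also had equal counts, as did Hbb-bt and Hbb-b2, so some members of the erythroid list repeat the same reads. The erythroid list, with 20 tested genes, had 0 higher and 0 lower at an unadjusted p under 0.05 (9.59% and 7.79% of all genes). Its median log2 fold change was nevertheless 1.76, and without floxed 2 that median was -2.87.

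All 32 tested cytosolic ribosomal protein genes were higher at an unadjusted p under 0.05 (9.59% of all genes), 21 of them without overlap (6.55% of all genes), with a median log2 fold change of 0.68 and 0 called. Rps14, a small-subunit protein, was at 631, 526 and 647 CPM in the controls and 706, 1920 and 992 CPM in the floxed libraries (log2 fold change 1.00 ± 0.239, edgeR adjusted p = 0.0993). Rplp0, a stalk protein, was at 1632, 1474 and 1435 CPM against 1913, 2786 and 2124 CPM (log2 fold change 0.59 ± 0.144, edgeR adjusted p = 0.101). These transcripts are short, and floxed 2, the library with the length relation, was the highest in both: the median of the list was 0.32 without floxed 2 and 0.46 with the length trend removed. Without floxed 1, 28 of the 32 passed an adjusted p of 0.05 (5.48% of all genes). The 29 nuclear-encoded oxidative phosphorylation genes had 16 higher and 0 lower at an unadjusted p under 0.05 (9.59% and 7.79% of all genes), 1 higher without overlap (6.55% of all genes), and a median of 0.52 that was 0.13 without floxed 2. Without floxed 1, 15 of the 29 passed an adjusted p of 0.05 (5.48% of all genes). Ndufa2, a complex I subunit, was at 48.8, 50.3 and 47.9 CPM in the controls and 50.3, 149 and 64.8 CPM in the floxed libraries (log2 fold change 0.84 ± 0.277, edgeR adjusted p = 0.151). The part of the length relation in these values was tested only by these alternatives.

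Glycolysis and hypoxia genes were higher in all 3 floxed libraries as a median, although none was called. Of 24 tested, 8 were higher and 0 lower at an unadjusted p under 0.05 (9.59% and 7.79% of all genes). Without overlap, 10 were higher (6.55% of all genes). The median log2 fold change was 0.42, and 0.49 without floxed 2. Median log2 deviations from the mean of the controls were 0.44, 0.39 and 0.38 in floxed 1 to 3 and -0.02, 0.07 and -0.02 in the controls. Eno1 (enolase) was at 250, 307 and 270 CPM in the controls and 435, 646 and 635 CPM in the floxed libraries (log2 fold change 1.05 ± 0.247, edgeR adjusted p = 0.093). Pkm (pyruvate kinase) was at 1216, 647 and 1256 CPM against 1721, 1702 and 2144 CPM (log2 fold change 0.84 ± 0.195, edgeR adjusted p = 0.0927). The groups did not overlap for either gene.

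The 14 tested stromal and endothelial genes, marker genes of cells that could be carried over from marrow, had 0 higher and 8 lower at an unadjusted p under 0.05 (7.79% of all genes), 9 lower (7.55%) and 1 higher (6.55%) without overlap, and a median log2 fold change of -1.77. Their summed level was 557, 405 and 676 CPM in the controls and 276, 167 and 237 CPM in the floxed libraries. Cxcl12, a niche chemokine named after its values were seen, was at 30.3, 36.4 and 22.8 CPM in the controls and 5.45, 7.81 and 2.56 CPM in the floxed libraries (log2 fold change -2.50 ± 0.712, edgeR adjusted p = 0.125). Sparc was at 5.19, 4.85 and 5.58 CPM against 1.30, 1.39 and 1.97 CPM (log2 fold change -1.75 ± 0.319, edgeR adjusted p = 0.0664), and Col1a2, a chain of type I collagen, was at 8.84, 3.62 and 8.37 CPM against 0.908, 2.34 and 1.54 CPM (log2 fold change -2.12 ± 0.476, edgeR adjusted p = 0.0821). Pecam1, which myeloid cells also express, was the largest part of the sum in controls 1 and 3, at 339 and 328 CPM, and Vcam1, an adhesion molecule, in control 2 and floxed 1, at 291 and 204 CPM. Vcam1 was at 8.77 and 1.03 CPM in floxed 2 and 3. Eng (endoglin), the member that was higher without overlap, was at 1.24, 4.79 and 1.49 CPM in the controls and 8.37, 4.86 and 5.47 CPM in the floxed libraries. The endothelial markers Kdr, Cdh5 and Emcn did not exceed 0.947 CPM in any library. Whether stromal cells took a part in the value of Col6a3, a collagen gene outside this list, was not tested.

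No gene of the other lists was called, and some of these lists are given by their counts and medians. Interferon-stimulated genes, of interest because pIpC was given to both groups, had 0 of 31 higher and 1 lower at an unadjusted p under 0.05. Over all genes these shares were 9.59% and 7.79%. The list had 5 lower without overlap (7.55% of all genes) and a median of -0.43. Ifit3 was at 3.26, 13.9 and 3.44 CPM in the controls and 0.259, 1.39 and 0.0855 CPM in the floxed libraries (log2 fold change -3.58 ± 1.5, edgeR adjusted p = 0.229), and without floxed 3 the list's median was -0.16. NF-kB and inflammatory genes had 5 of 20 higher (9.59% of all genes) and 0 lower, a median of 0.33 that was 0.67 without floxed 1 and 0.11 without floxed 2, and Tnf at 2.56, 4.29 and 5.19 CPM in the controls and 4.99, 14.7 and 26.6 CPM in the floxed libraries (log2 fold change 1.94 ± 0.511, edgeR adjusted p = 0.111). Of 36 cell cycle and DNA replication genes, 4 were higher (9.59% of all genes) and 0 lower, and 6 were higher without overlap (6.55% of all genes), with a median of 0.14. Ccnd2 (cyclin D2) was at 12.2, 2.84 and 21.3 CPM against 46.8, 44.5 and 94.1 CPM (log2 fold change 2.35 ± 0.753, edgeR adjusted p = 0.147). MYC targets and ribosome biogenesis genes had 5 of 24 higher (9.59% of all genes) and 0 lower (7.79%), with a median of 0.23 that was -0.18 without floxed 1. Of 15 B lineage genes, 2 were lower (7.79% of all genes) and 0 higher, 13 had a log2 fold change below 0, and the median was -1.25; it was -0.37 without control 2. Most of them were close to 0 CPM. Rag2, a V(D)J recombinase subunit, was at 5.50, 2.51 and 4.15 CPM in the controls, and the floxed libraries held 2 counts in all against 180, a ratio of 75.2 with a counting interval of 20.5 to 625. That interval covers counting error only, and Rag2 was not called (edgeR adjusted p = 0.0827).

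**Figure D5:**
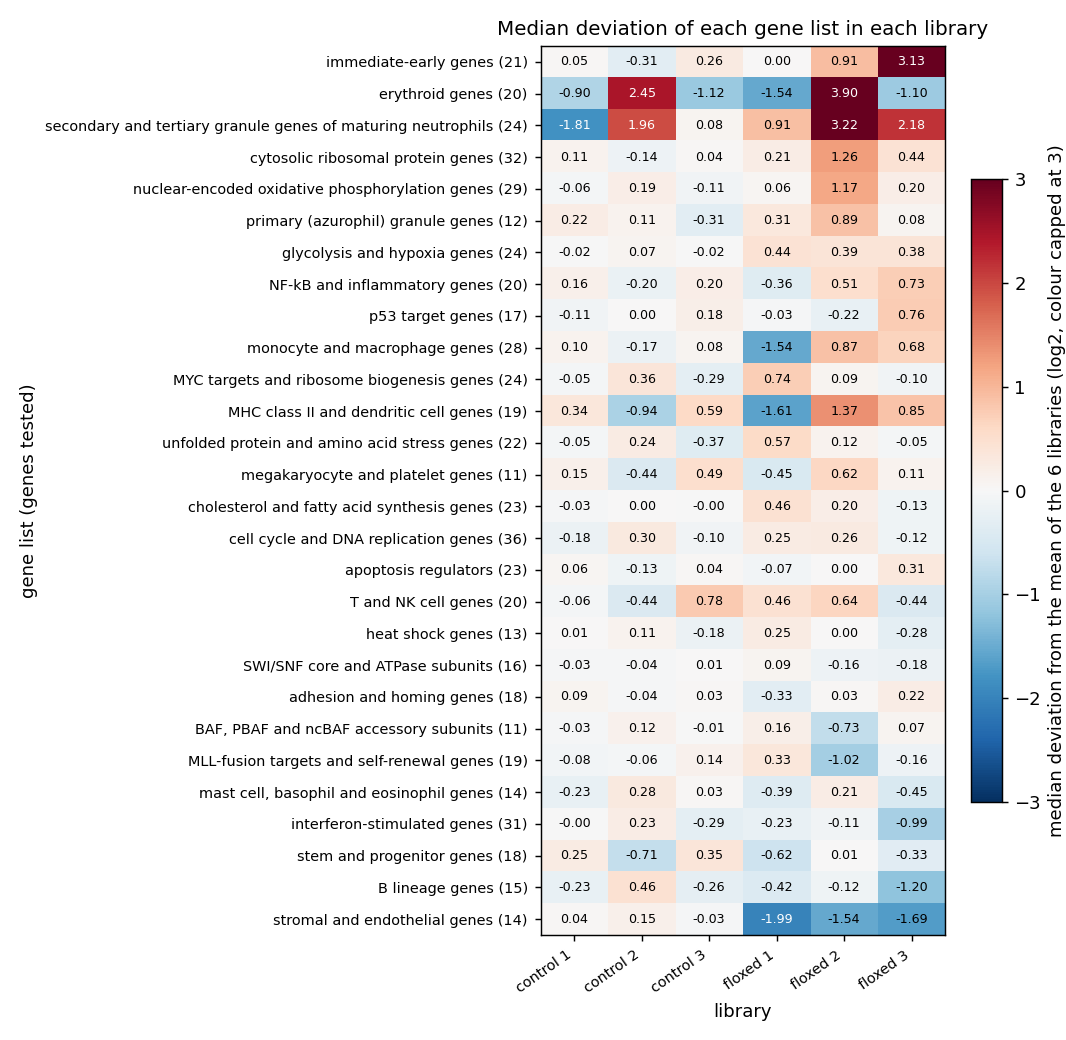
Median deviation of the genes of each list (rows, with the number tested) from their control mean, on the log2 scale, in each library (columns). The reference is the mean of the 3 controls, although the colour bar is labelled with the 6 libraries. The sex-linked list is not drawn. Immediate-early genes stand out in floxed 3 (3.13), erythroid genes in floxed 2 (3.90) and control 2 (2.45), and stromal and endothelial genes are low in all 3 floxed libraries (-1.99, -1.54 and -1.69).

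The floxed effect of the set was compared with that of the other 3 sets by the difference of the contrasts; no controls are shared between sets. Against the MxCre set titled A2, 27 genes differed at an adjusted p under 0.05 (0.192%), 10 with a higher effect in the set titled A1b (0.0709%) and 17 with a lower one (0.121%). Gla was among them: it averaged 33.1 CPM in the controls and 23.2 CPM in the floxed libraries of the set titled A2, and the difference of log2 fold changes was 1.53 ± 0.214 (edgeR adjusted p = 0.013). Col6a3 went opposite ways, with means of 1.25 and 15.5 CPM in controls and floxed libraries of the set titled A2 and 61.0 and 1.03 CPM in the set titled A1b, a difference of -9.47 ± 1.55 (edgeR adjusted p = 0.0265). A lower level in floxed libraries was not particular to the set titled A1b. The log2 fold change of Col6a3 was -2.23 in the VavCre Arid1b set and -5.44 in the VavCre Arid2 set. Against the VavCre Arid1b set 105 genes differed (0.745%), and against the VavCre Arid2 set 212 (1.5%). All 3 counts turned on single libraries of the set titled A1b, running from 1 to 1419, 1 to 244 and 5 to 1058 as each was left out. Y-linked genes were present in every control and no floxed library of the VavCre Arid1b set. In the set titled A2 they were present in every floxed library and no control. Sex and floxed alleles therefore cannot be told apart within these sets. With a term for Y-positive libraries the counts were 28, 149 and 7, of which 7, 80 and 7 were shared with the fit reported.

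The controls of the set titled A1b and of the set titled A2, which carry the same Cre and fusion and differ in set, had 0 genes called by edgeR (0%), 817 at an unadjusted p under 0.05 (5.79%), 28 called by DESeq2 and 36 by voom with library weights. The smallest p was that of Col6a3, whose log2 difference between the control groups was 5.61 ± 1.12 (edgeR adjusted p = 0.373), close in size to its -5.84 within the set titled A1b. Across the 10497 genes at 5 CPM or more, log2 fold changes of the set titled A1b correlated with those of the set titled A2 at r = -0.28, with the VavCre Arid1b set at 0.29 and with the VavCre Arid2 set at 0.01 (Pearson; rho = -0.12, 0.06 and -0.20). These are across genes of 2 sets of 6 libraries each and carry no test. The sets also differ in which groups held Y-linked genes, and the part of sex in these correlations was not tested.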

How the data were processed

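Mouse leukaemia RNA was sequenced in 24 libraries (8 groups of 3), of which 6 form the set described here. Per the labels' protocols, RNA was extracted with TRIzol, selected for poly(A) and made into directional libraries. The deposited table holds raw counts of reads for each gene symbol; the authors aligned to mm10 with STAR, per the submitters' processing notes. The counter, annotation and strand setting were not given in the sources used here, so overlapping genes and near-identical copies are uncertain. The members, gene lists and tests were chosen with earlier results of these data known.

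Of 24046 genes, filterByExpr (minimum count 10, total 15) kept 14099. An edgeR 4.0.16 (R 4.3.3) quasi-likelihood model with robust estimation and trimmed-mean scaling was fitted over all 24 libraries, 1 mean per group (16 residual degrees of freedom); called genes have an adjusted p (Benjamini-Hochberg) under 0.05. The common biological coefficient of variation was 0.4. Alternatives were DESeq2 1.42.0, limma 3.58.1 voom with library weights, other scalings and filters, fewer libraries, a replicate block, a Y term and, chosen after seeing the data, removal of each library's exon length trend and the omission of control 2 with floxed 1.

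Genes were named by rule: Arid1b and Arid2; called genes; if fewer than 20 were called, the 10 per direction with the smallest p whose groups did not overlap, at 5 CPM or more in the higher group, without predicted genes; from each of 29 lists, called members or else the 2 of smallest p; the genes standing out most in 1 library; and the 5 with the smallest p of each difference. Exceptions are stated where they occur. Promoters are from RefSeq (GRCm38.p6). Some items are not reported here.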

Additional observations from a re-analysis of the deposited data

Results flagged for a closer look

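The differences between the floxed effect of the set titled A1b and that of each other set were tested in the model over all 24 libraries, and those that passed are listed here as differences of log2 fold changes, set titled A1b minus the other set.

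Against the MxCre set titled A2, 27 genes passed. The 5 with the smallest p were Gla (1.53), Gabbr1 (-4.61), Prkca (-6.10), Col6a3 (-9.47) and Reps2 (-4.64). For Gabbr1, a GABA-B receptor subunit, Prkca, protein kinase C alpha, Col6a3 and Reps2, an endocytic adaptor, the fold change was below 0 in the set titled A1b and above 0 in the set titled A2. In both VavCre sets the fold changes of these genes were below 0 as well. Prkca averaged 7.78 CPM in controls and 1.06 CPM in floxed libraries of the set titled A1b, against 0.952 and 9.0 CPM in the set titled A2.

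Against the VavCre Arid1b set, 105 genes passed. The 5 with the smallest p were Ppp2cb (1.48), Cd63 (2.91), Nos1ap (-3.54), Ikzf1 (-1.30) and Rnf7 (1.74). Cd63, a tetraspanin of granules and endosomes, averaged 223 and 260 CPM in controls and floxed libraries of the set titled A1b and 392 and 61.0 CPM in the VavCre Arid1b set. Ikzf1 (Ikaros) averaged 417 and 283 CPM against 369 and 618 CPM.

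Against the VavCre Arid2 set, 212 genes passed. The 5 with the smallest p were Evpl (7.28), Nudt4 (1.77), 5031425F14Rik (5.45), Bhlhe40 (3.19) and Acp5 (3.50). Evpl (envoplakin) averaged 8.83 and 38 CPM in the set titled A1b and 20.7 and 0.563 CPM in the VavCre Arid2 set.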

How the results depend on the processing

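Counts of called genes within the set titled A1b depended on the libraries kept. Beside 1 gene in the fit reported, DESeq2 gave 478, voom with library weights 12, upper quartile scaling 3, a term for Y-positive libraries 2, and no filter, a fit on the compared groups alone, removal of the exon length trend and the omission of floxed 2 and 3 together 0 each. Leaving out 1 library gave 0 to 1535, and leaving out control 2 and floxed 1 together, chosen after seeing the data, 947.

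For the difference from the set titled A2 (27), the counts were 604 (DESeq2), 14 (no filter), 0 (compared groups), 1 (without floxed 2 and 3) and 819 (without control 2 and floxed 1), and 1 to 1419 with 1 library left out. For the VavCre Arid1b set (105) they were 770 (DESeq2), 783 (voom), 64 (no filter), 21 (compared groups), 533 (without floxed 2 and 3) and 237 (without control 2 and floxed 1), and 1 to 244. For the VavCre Arid2 set (212) they were 1146 (DESeq2), 1740 (voom), 63 (no filter), 22 (compared groups), 7 (Y term), 26 (without floxed 2 and 3) and 1360 (without control 2 and floxed 1), and 5 to 1058. Between the control groups (0) they were 28 (DESeq2), 36 (voom), 0 to 5, and 4 (without control 2 and floxed 1). The causes were not tested.

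With the replicate block, 1 gene was called within the set, with Gla at an adjusted p of 0.256, and the differences gave 1, 0 and 10 genes. Deviations of same-numbered controls and floxed libraries from their group means correlated at -0.22, -0.14 and 0.26. Those of differently numbered libraries ran from -0.30 (control 3, floxed 1) to 0.30 (control 2, floxed 1). With 3 libraries per group these values cannot show whether the numbers pair the samples, and the labels do not say so. The control comparison has no such fit, since the block lies within sets.

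The fold changes of 78 named genes (Arid1b, Arid2, Gla, the 20 leading separated genes and the list members) were refitted under each setting, and 10 values changed sign. Arid1b was -0.12 (replicate block), -0.17 (without floxed 1), -0.13 (without floxed 3) and -0.086 (without control 2 and floxed 1), and 0.56 without floxed 2. Without floxed 2 and 3, Prdm16 was -2.29, Ctsc -0.35, Car2 -1.27 and Hba-a1 -4.27; without floxed 2, Car2 was -1.72 and Hba-a1 -2.58, against 5.88 and 5.64 without control 2. The other values of these 78 genes kept their direction, 128 passing the threshold where the fit reported did not, and 8 the reverse. Genes named only for standing out in 1 library, such as Fosb and Dusp1, are not among them. Of the list medians, 62 moved by more than their spread and 489 did not.

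With 12069153 to 17231014 counts per library, genes held by 3 counts or fewer in a group (Rag2 and Prdm16 here) have ratios known only within wide counting intervals.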

Other observations

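The Y-linked genes Kdm5d, Eif2s3y, Uty and Ddx3y, which lie on the male-specific part of the chromosome, were not all present together in every Y-positive library. In floxed 1 of the set titled A1b, Kdm5d was at 35.2 CPM and Eif2s3y at 102 CPM, while Uty and Ddx3y had 0 counts. In controls 1 and 3 all 4 genes were present, with Uty at 40.2 and 36.3 CPM and Ddx3y at 128 and 119 CPM. Across the series, 7 of 10 Y-positive libraries had all 4 genes above 20 CPM, and 3 had at least 1 gene below 1 CPM. The other two were of the MxCre set titled A2: its floxed 1 had Eif2s3y at 0 and Ddx3y at 0.1 CPM with Kdm5d at 42.1 and Uty at 27.4 CPM, and its floxed 3 had Eif2s3y at 0.069 CPM with Kdm5d at 48.7, Uty at 35.9 and Ddx3y at 105 CPM. All 3 were MxCre floxed libraries. Xist, the X-inactivation RNA, was at 2428, 655 and 1293 CPM in control 2, floxed 2 and floxed 3, the Y-negative libraries, and at 28.1 CPM in floxed 1. These genes were chosen after their values were seen, and no cause was tested.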
